A study of Homo sapiens with 4 samples.

Results

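The nuclear-encoded subunits of the mitochondrial respiratory chain were followed in MDA-LM2 cells in which the transcription factor SOX4 had been targeted by siRNA. Members were taken by gene symbol: the NDUFA, NDUFB, NDUFC, NDUFS and NDUFV genes of complex I, the SDH genes of complex II, the UQCR genes of complex III, the COX4 to COX8 genes of complex IV and the ATP5 genes of complex V. The array annotation gave 129 such probes for 93 genes, out of 47323 probes. Of these, 111 probes for 84 genes were called above background (detection p under 0.05) by 2 or more of the 4 arrays and were kept, among 20118 kept probes and 11389 genes in all. The symbols also take in 8 assembly factors of complex I (NDUFAF1 to NDUFAF8), which are not subunits, and 3 pseudogenes or retrogenes (ATP5F1EP2, UQCRBP1 and UQCRHL). The other 73 kept genes are subunits or regulators of complexes I to V, with 34 in complex I, 3 in complex II, 7 in complex III, 11 in complex IV and 18 in complex V.

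MDA-LM2 cells descend from MDA-MB-231 human breast cancer cells and were selected for colonising the lung. The siSOX4 group (2 arrays) was transfected with siRNA against SOX4 and the siControl group (2 arrays) with control siRNA, both with a lipofection reagent, and total RNA was taken 48 h later. The series states that a pair of different siRNAs was used against SOX4, and the labels do not tie either one to a sample number. Separate cultures are named in no label, and the errors describe the spread between these arrays, which may be technical.

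The respiratory chain passes electrons from NADH, through complex I, and from succinate, through complex II, by way of coenzyme Q to complex III, and from there by cytochrome c to complex IV, which reduces oxygen. Complexes I, III and IV pump protons across the inner mitochondrial membrane, and complex V, the ATP synthase, uses the return flow to make ATP. Most subunits are encoded in the nucleus. Their genes are known to be controlled in part by the factors NRF1, GABPA (an ETS factor) and YY1, and breast cancer cells draw on both respiration and glycolysis for energy.

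The arrays detected from 18609 to 20292 probes. The single annotated SOX4 probe gave raw signals of 206 and 193 in siSOX4 samples 1 and 2, against 253 and 239 in siControl samples 1 and 2. Its log2 difference was -0.35 ± 0.19 (limma standard error, n = 2 per group, adjusted p = 0.487), so the lowering of the targeted transcript itself did not pass the test. All 6 markers fixed for the parent line, such as VIM and CD44, were detected on 4 arrays. Of 6 luminal markers ESR1, PGR, FOXA1 and CDH1 were detected on none, EPCAM on 4 and GATA3 on 2. Of 7 immune markers with a probe PTPRC, CD3E and ITGAM were detected on none, CD14, LYZ and CD68 on 4 and MS4A1 on 2. Of 8 endothelial and fibroblast markers CDH5, VWF, KDR and DCN were detected on none, PECAM1, LUM and COL1A1 on 4, and PDGFRB on both siSOX4 arrays and neither control. The summed level of the 4 endothelial and fibroblast markers kept was 453 and 518 after siSOX4 against 313 and 370 after siControl. That sum includes PDGFRB, which was kept through the siSOX4 arrays alone. The sums of the kept immune markers (1945 and 2303 against 2473 and 2163) and luminal markers (223 and 343 against 284 and 349) overlapped between groups. For the parent line markers the sums were 47824 and 48270 against 50917 and 48674. The part of these levels in the results was not tested. The siSOX4 samples were farther from each other than the controls were. Over the 84 respiratory chain genes, the log2 difference between samples had an SD of 0.26 within siSOX4 and 0.15 within siControl.

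Levels of respiratory chain transcripts were close to the controls after siSOX4. Of the 84 genes, 44 were lower and 40 higher, with a median log2 difference of -0.013, next to -0.016 over all genes. Scaling each array to its median instead of quantile normalization gave 57 lower and 27 higher, or 67.9% lower, where 55.0% of all genes were lower (52.4% and 52.0% with quantile normalization). By limma 0 of the 84 reached an adjusted p below 0.05 (lowest 0.274), and the share called over all genes was also 0%. At an unadjusted p under 0.05, 4 members were lower and 1 higher, where 7.39% and 7.44% of all genes were. Leaving out siSOX4 sample 1 or 2 brought 2 and 10 members past the threshold, in fits that take the lone siSOX4 array to vary like the controls, against 1359 and 2811 of all genes.

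The interquartile range of the members' differences was 0.22 on the log2 scale, against 0.42 over all genes, and their median standard error was 0.15 against 0.20. The members were also brighter, with a median log2 signal of 10.85 against 7.50 over all genes, and the part of signal level in this was not tested. NDUFAF8 alone among the 84 differed by more than 0.5 in either direction, where 13.9% of all genes did, and its value moved from 0.68 to 0.36 without background correction. The 95% interval of the difference lay inside a 1.5-fold change in either direction for 60 of the 84 members and inside a 2-fold change for 83, so that for most members larger shifts than these fall outside the interval. Over all genes 29.7% and 84.4% of intervals did. The group difference was smaller than the gap between the controls for 33 members (39.3%), next to 38.9% of all genes.

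**Figure D1:**
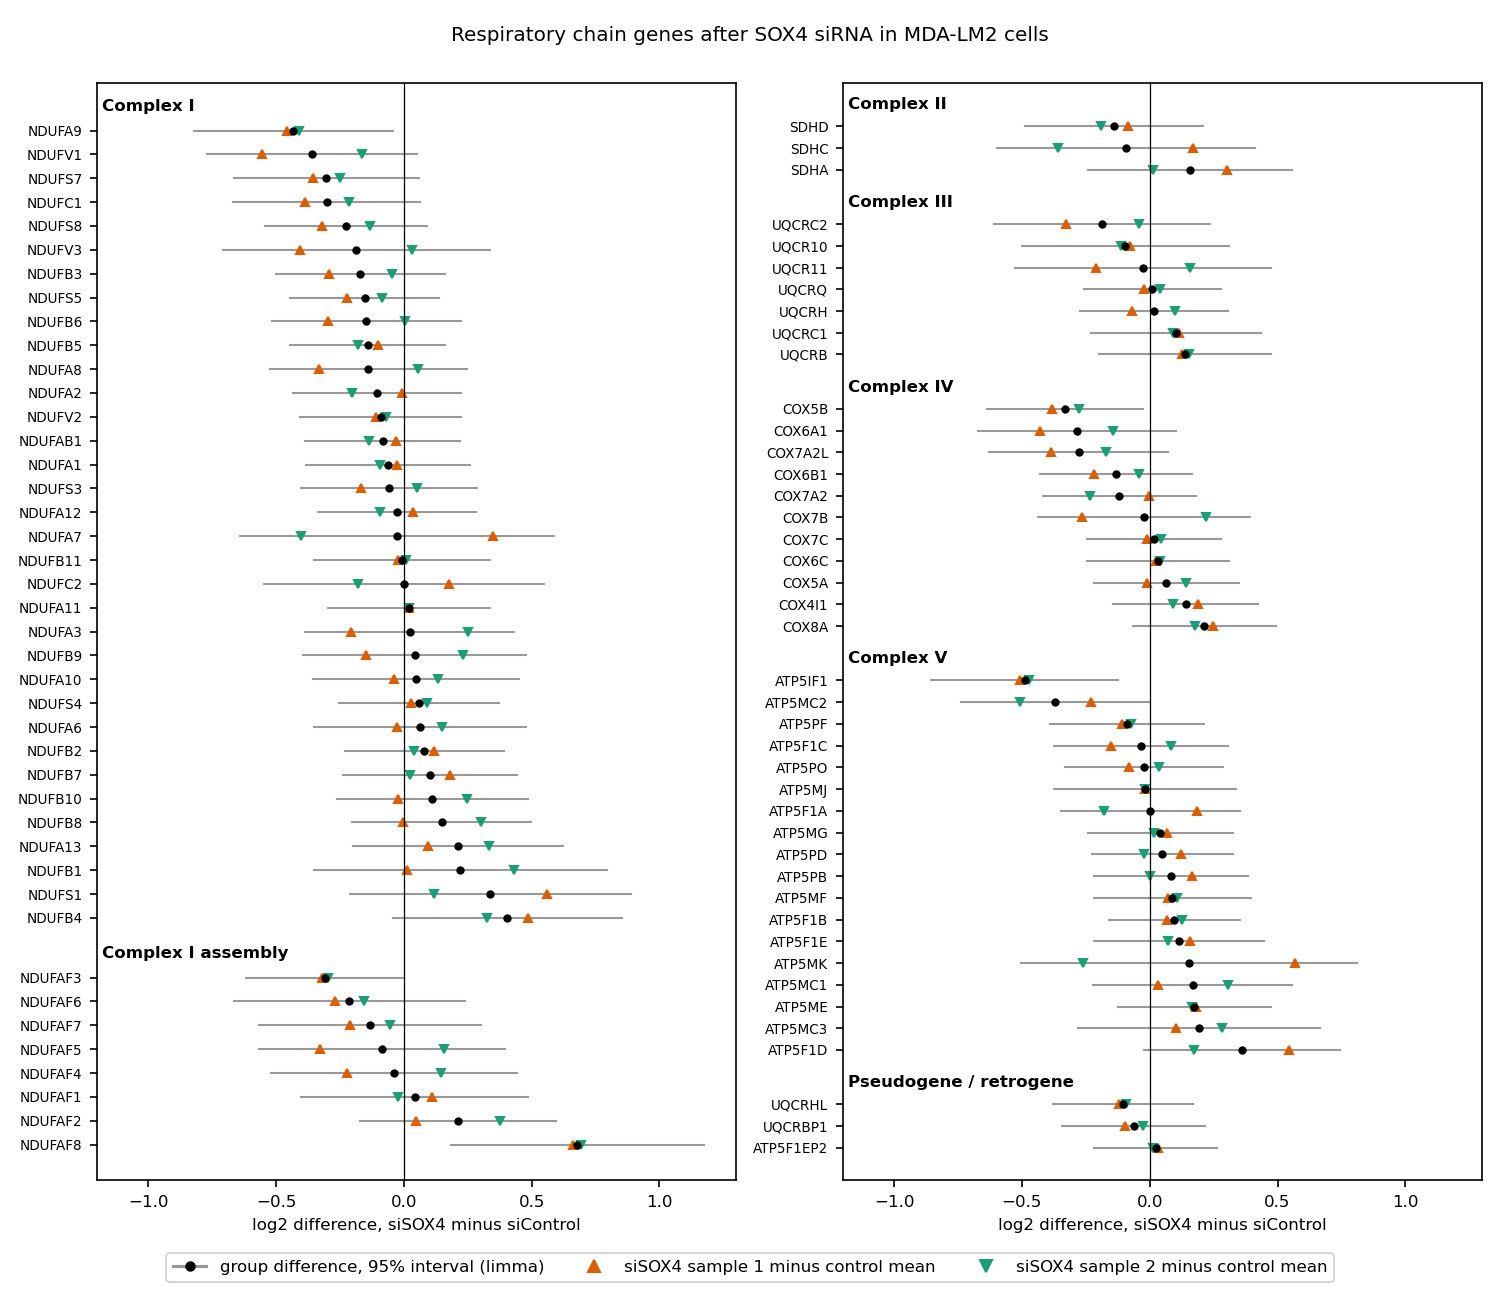
Log2 difference of siSOX4 minus siControl for each of the 84 kept respiratory chain genes, grouped by complex, with the 95% interval from limma (black point and grey line, n = 2 arrays per group) and each siSOX4 sample against the control mean (triangles). Most intervals cross 0, and NDUFAF8 (0.68) and ATP5IF1 (-0.49) lie farthest from it.

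Groups that do not overlap, with both siSOX4 arrays on one side of both controls, were found at shares near the background. Of the 84 members, 20 lay below both controls (23.8%), where 25.1% of all genes did, and 17 lay above (20.2%), where 22.7% did. By complex, those below numbered 9 of 34 in complex I, 1 of 3 in complex II, 0 of 7 in complex III, 3 of 11 in complex IV and 4 of 18 in complex V, and those above numbered 4, 0, 2, 3 and 6.

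**Figure D2:**
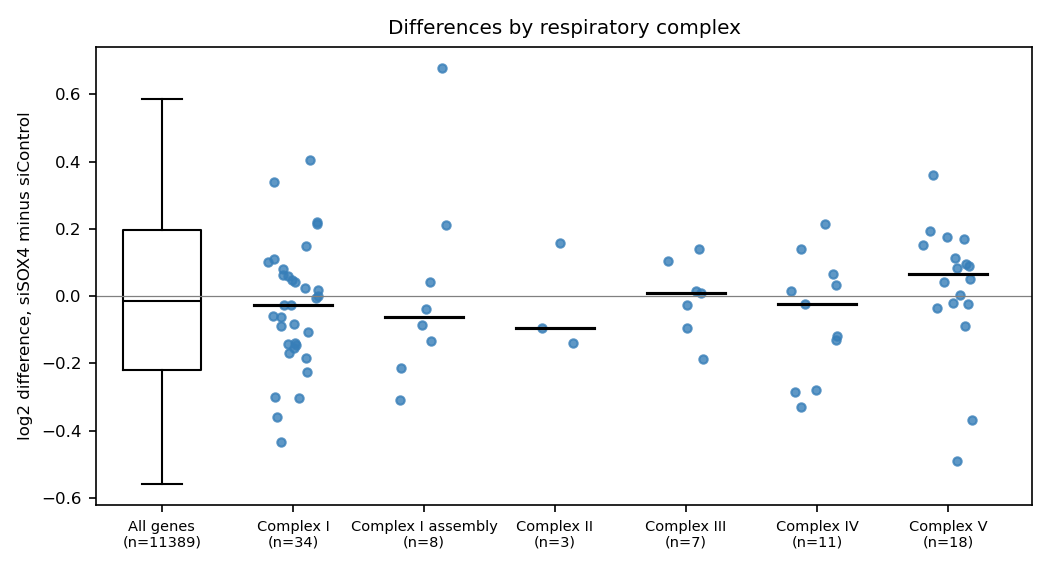
Log2 difference of siSOX4 minus siControl (vertical axis) by complex, 1 point per gene, with the median as a black bar, beside a box for all 11389 genes (median, quartiles, and whiskers at the 5th and 95th percentiles). The medians run from -0.09 in complex II to 0.07 in complex V, and the points of complexes I to V lie between -0.49 and 0.41, the highest being NDUFB4, which neither control detected.

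Promoter sequence was looked up for the members because these genes are known for shared regulators. RefSeq windows on GRCh38.p14, from 250 bases before to 50 after each gene's start, were found for 69 of the 84 genes, 10 of them with several windows. An NRF1 motif (GCGCNTGCG) was present in 22 of the 69 (31.9%), an ETS motif (CCGGAAGT) in 12 (17.4%) and a YY1 motif (AAGATGGC) in 12 (17.4%), on either strand. Among all 27305 genes of the table the shares were 9.01%, 4.95% and 3.52%, and among the 9212 with a kept probe 17.1%, 9.95% and 6.52%. The median log2 difference after siSOX4 was -0.03 in members with the NRF1 motif and 0.01 in those without, 0.01 and -0.03 for the ETS motif, and 0.04 and -0.03 for the YY1 motif, and these differences between motif groups were not tested.

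For each complex, the window is given of the member with a match and the largest difference. Matches are in capitals, none of them overlap, and each sequence reads 5′ to 3′ on the gene's strand. The window of NDUFA9 (chr12:4648864-4649163, + strand) holds an NRF1 and a YY1 match, that of SDHA (chr5:218070-218369, + strand) 4 NRF1 matches, and that of UQCRC1 (chr3:48609597-48609896, - strand) an NRF1 and a YY1 match. COX5B (chr2:97645812-97646111, + strand) has 2 ETS matches. ATP5MC2 (chr12:53676034-53676333, - strand) has 1 NRF1 match in the window shown, which is 1 of the 3 found for this gene. These matches describe the letters and were not tested for binding.
NDUFA9: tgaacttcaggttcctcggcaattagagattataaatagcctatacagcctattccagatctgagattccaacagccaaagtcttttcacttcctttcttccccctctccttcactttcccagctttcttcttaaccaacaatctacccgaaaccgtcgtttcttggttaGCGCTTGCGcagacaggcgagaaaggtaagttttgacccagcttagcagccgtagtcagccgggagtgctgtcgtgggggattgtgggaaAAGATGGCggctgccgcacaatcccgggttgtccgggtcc
SDHA: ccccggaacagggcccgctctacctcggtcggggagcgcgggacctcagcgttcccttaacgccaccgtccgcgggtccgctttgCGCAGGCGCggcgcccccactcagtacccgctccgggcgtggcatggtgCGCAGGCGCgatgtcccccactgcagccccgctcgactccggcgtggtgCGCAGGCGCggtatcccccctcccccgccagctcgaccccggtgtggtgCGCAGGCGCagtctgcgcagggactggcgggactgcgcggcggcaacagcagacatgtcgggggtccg
UQCRC1: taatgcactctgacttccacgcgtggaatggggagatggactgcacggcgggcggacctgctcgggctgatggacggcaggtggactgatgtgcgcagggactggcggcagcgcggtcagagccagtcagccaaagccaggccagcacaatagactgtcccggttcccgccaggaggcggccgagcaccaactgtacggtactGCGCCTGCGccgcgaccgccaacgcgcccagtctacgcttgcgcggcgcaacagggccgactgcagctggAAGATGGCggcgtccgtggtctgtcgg
COX5B: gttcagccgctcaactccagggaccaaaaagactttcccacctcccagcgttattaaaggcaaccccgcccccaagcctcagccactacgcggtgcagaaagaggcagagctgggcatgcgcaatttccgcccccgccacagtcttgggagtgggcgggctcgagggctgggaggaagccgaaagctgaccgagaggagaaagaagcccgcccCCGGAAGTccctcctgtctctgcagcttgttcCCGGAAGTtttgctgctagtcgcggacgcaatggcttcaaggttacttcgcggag
ATP5MC2: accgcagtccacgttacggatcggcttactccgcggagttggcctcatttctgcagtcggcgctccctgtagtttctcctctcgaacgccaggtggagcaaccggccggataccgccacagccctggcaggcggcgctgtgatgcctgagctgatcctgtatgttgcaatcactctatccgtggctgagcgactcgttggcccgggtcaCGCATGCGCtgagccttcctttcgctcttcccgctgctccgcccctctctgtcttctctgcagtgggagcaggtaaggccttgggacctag

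In complex I, the NADH dehydrogenase, 20 of 34 genes were lower and 14 higher, with a median log2 difference of -0.03 (24 and 10 after median scaling). The subunit of largest difference was NDUFA9, an accessory subunit at the joint between the matrix arm and the membrane arm. Its normalized log2 signal was 9.11 and 9.16 after siSOX4 and 9.69 and 9.45 in the controls. Both siSOX4 arrays lay below both controls, and the promoter with the NRF1 and YY1 matches shown above belongs to this gene. The difference of -0.43 ± 0.17 (1.35-fold lower, 95% interval -0.82 to -0.04) had an unadjusted p of 0.0334 and an adjusted p of 0.346 in limma. In the authors' deposited table its siControl to siSOX4 ratio was 1.36, the highest of the 72 member probes matched there, and the ratio of NDUFAF8 was the lowest, 0.785. Of the 72 ratios in the authors' deposited table, 50 were above 1, meaning a lower signal after siSOX4, and 22 below. These 72 probes stand for 66 genes, and ATP5IF1, ATP5MC2, ATP5F1D and ATP5F1A are not among them. The share of ratios above 1 over the whole of that deposited table is not given here. In a fit of the deposited values, which are scaled to array medians, 67.9% of the 84 members were lower, where 55.8% of all genes were.

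The core subunits of complex I, which carry the flavin and the iron-sulfur clusters and are conserved from bacteria, were lower for 5 of the 6 measured, with a median of -0.16 (-0.20 after median scaling). Without siSOX4 sample 1, 4 of the 6 were lower and the median was -0.10, and without sample 2 it was -0.24. NDUFV1, which binds NADH and the flavin, had log2 signals of 9.56 and 9.95 after siSOX4 and 10.12 and 10.10 in the controls. NDUFS7, an iron-sulfur subunit next to the coenzyme Q site, had 9.60 and 9.70 against 10.02 and 9.89. NDUFS8, another iron-sulfur subunit, had 11.76 and 11.95 against 12.15 and 12.01. In all 3 genes both siSOX4 samples were below both controls, with sample 1 the lower. Their log2 differences were -0.36 ± 0.18 for NDUFV1, -0.30 ± 0.16 for NDUFS7 and -0.23 ± 0.14 for NDUFS8, and none passed (adjusted p from 0.448 to 0.535, limma). NDUFV2 (-0.09 ± 0.14) and NDUFS3 (-0.06 ± 0.15) differed by less than their standard errors. NDUFS1, the largest core subunit, went the other way at 0.34 ± 0.24, with 6.22 and 5.78 after siSOX4 and 5.81 and 5.52 in the controls, so its groups overlapped. In all, 4 of the 6 core genes lay below both controls, NDUFV2 among them, where 25.1% of all genes did. The core subunits were added after their values were seen, so this count describes them and is no test.

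By position in complex I, the NADH-binding module had a median of -0.03 (9 genes) and the coenzyme Q module -0.23 (3 genes, all lower). The proximal membrane arm had one of -0.03 (10 genes) and the distal membrane arm 0.06 (12 genes, 7 of them higher). The 3 coenzyme Q module genes are NDUFS3, NDUFS7 and NDUFS8, core subunits already counted above. NDUFS3 was 0.05 above the control mean in siSOX4 sample 2, and 52.0% of all genes were lower. NDUFB4 of the distal arm had raw signals of 94.3 and 84.1 after siSOX4 and 81.0 and 73.7 in the controls, and was detected in both siSOX4 samples and in neither control. Set against the lowest detected signal, it was at least 1.06-fold higher. NDUFB4 entered the kept set through the siSOX4 arrays alone, and 2 further probes for it were detected nowhere. NDUFC2 of the membrane arm had the smallest difference of complex I, with 5.84 and 5.48 after siSOX4 and 5.46 and 5.86 in the controls. For NDUFA10, the kept probes disagreed, with 0.05 ± 0.17 for the brighter and -0.38 ± 0.19 for the dimmer.

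The assembly factors of complex I were not uniform. Of 8 genes, 5 were lower and 3 higher, with a median of -0.06, which was -0.22 for siSOX4 sample 1 alone and 0.06 for sample 2, while siControl sample 1 minus sample 2 was -0.11. NDUFAF8, a small partner of NDUFAF5 in building the coenzyme Q module, had the smallest p of the 84 representative probes. Its log2 signals were 6.25 and 6.28 after siSOX4 and 5.42 and 5.75 in the controls. The probe was dim, with raw signals of 128 and 127 against 97.5 and 106, where the array medians were 76.6 to 82.4. Both siSOX4 samples were nearly equal and above both controls. The difference was 0.68 ± 0.21 (1.60-fold higher, 95% interval 0.18 to 1.17, unadjusted p = 0.0135, adjusted p = 0.274, limma). NDUFAF5 itself differed by -0.09 ± 0.21, its siSOX4 samples standing -0.33 and 0.16 from the control mean.

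NDUFAF3, which acts with NDUFAF4 on early intermediates, had log2 signals of 11.00 and 11.02 after siSOX4 and 11.34 and 11.30 in the controls, all siSOX4 values being below the controls. Its difference of -0.31 ± 0.13 did not pass (adjusted p = 0.385, limma), and NDUFAF4 differed by -0.04 ± 0.21. NDUFAF2, which helps the late steps of the matrix arm, was at 10.36 and 10.69 against 10.27 and 10.36, a difference of 0.21 ± 0.17. NDUFAF6 (-0.21 ± 0.20), NDUFAF7 (-0.13 ± 0.19, with other probes at 0.21 and -0.05) and NDUFAF1 (0.04 ± 0.19) had overlapping groups.

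Complex II, succinate dehydrogenase, also serves the citric acid cycle, and its members pointed in both directions. SDHA, the flavoprotein that oxidises succinate, had log2 signals of 9.64 and 9.35 after siSOX4 and 9.30 and 9.37 in the controls, a difference of 0.16 ± 0.17 (adjusted p = 0.749, limma). A second SDHA probe gave 0.25 ± 0.17. SDHC and SDHD anchor the enzyme in the membrane. SDHC was at 8.96 and 8.43 after siSOX4 and 8.89 and 8.69 in the controls, which is high in one siSOX4 sample and low in the other, with a difference of -0.09 ± 0.22 and -0.27 ± 0.18 by a second probe. SDHD was at 10.41 and 10.31 against 10.41 and 10.58, a difference of -0.14 ± 0.15. SDHB was not analysed here.

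Complex III, the cytochrome bc1 complex, had differences from -0.19 to 0.14, with a median of 0.01 that became -0.04 after median scaling. UQCRC1 and UQCRC2 are its paired core proteins. UQCRC1 was at 10.36 and 10.34 after siSOX4 and 10.24 and 10.25 in the controls, a narrow gap of 0.10 ± 0.14 in which the groups did not overlap. UQCRC2 was at 8.68 and 8.97 against 8.93 and 9.09, a difference of -0.19 ± 0.18 with overlapping groups. Of the small subunits, UQCRB differed by 0.14 ± 0.15, UQCR10 by -0.10 ± 0.17 (other probes 0.03 and 0.09) and UQCRQ by 0.01 ± 0.12, and none passed (adjusted p from 0.711 to 0.981 over the 5 genes, limma). For UQCRQ the 95% interval ran from -0.26 to 0.28. The annotation also assigns probes to UQCRHL (-0.11 ± 0.12) and UQCRBP1 (-0.06 ± 0.12), whose transcripts are close copies of UQCRH and UQCRB, so their probes may bind those transcripts as well.

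In complex IV, cytochrome c oxidase, 6 of 11 genes were lower and 5 higher (9 and 2 after median scaling), with a median of -0.02. COX5B, a nuclear subunit on the matrix side, had the largest difference. Its log2 signals were 11.27 and 11.37 after siSOX4 and 11.65 in both controls. Both siSOX4 samples lay below the controls, and the promoter of COX5B holds the ETS matches shown above. The difference was -0.33 ± 0.13 (1.26-fold lower, 95% interval -0.64 to -0.03, unadjusted p = 0.0372, adjusted p = 0.355, limma).

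COX6A1, the widely expressed isoform of subunit 6A, had 10.29 and 10.58 after siSOX4 and 10.83 and 10.61 in the controls, and siSOX4 sample 2 lay just under the lower control. COX7A2L, which helps complexes III and IV join into supercomplexes, had 10.48 and 10.70 against 10.81 and 10.93. Their differences were -0.28 ± 0.17 and -0.28 ± 0.15. COX8A, the smallest subunit, was at 12.67 and 12.60 after siSOX4 and 12.46 and 12.37 in the controls, above both, with a difference of 0.21 ± 0.12 (adjusted p = 0.508, limma). COX7C differed by 0.02 ± 0.11, the smallest in the complex.

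Isoforms of complex IV known from particular tissues had no kept probe. Whether the probes of undetected genes bind their transcripts was not tested. COX4I2 of the lung, COX6A2 and COX7A1 of heart and skeletal muscle, and COX7B2 and COX8C of the testis were detected on none of the 4 arrays, and COX6B2, also of the testis, on 1 control. Their raw signals lay between 46.9 and 87.9, where the array medians over all probes were 76.6 to 82.4. The widely expressed counterparts COX4I1, COX6A1, COX6B1, COX7A2, COX7B and COX8A were detected on all 4 arrays. NDUFA5 and NDUFS6 of complex I also had no kept probe. For NDUFA5, just outside the detection rule with 1 array, raw signals were 74.4 and 80.2 after siSOX4 and 80.9 and 96.0 in the controls, and for ATP5MK, just inside it with 2, they were 106 and 75.1 against 91.2 and 83.8.

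**Figure D3:**
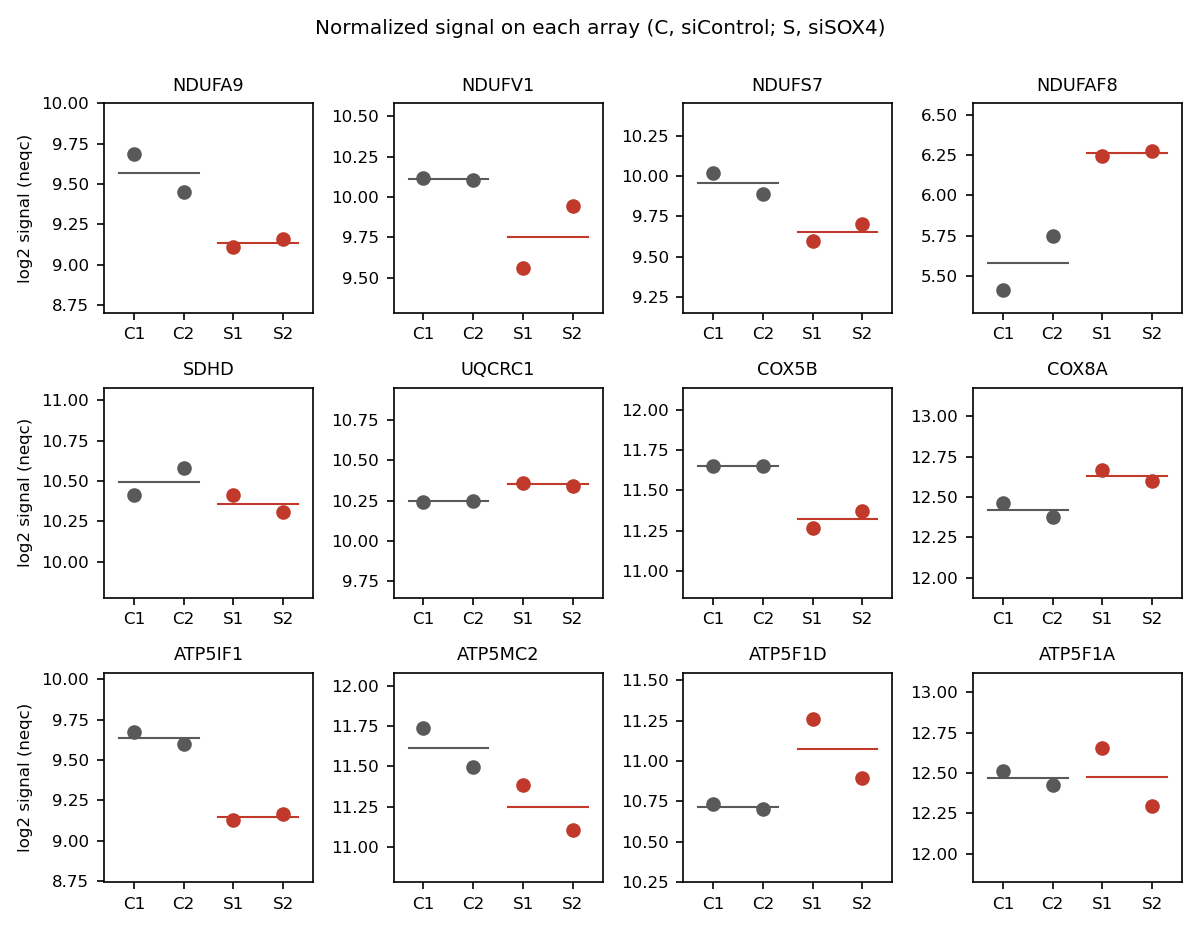
Normalized log2 signal on each array for 12 members, with siControl samples in grey (C1, C2), siSOX4 samples in red (S1, S2), lines at the group means and the same height of axis in every panel. NDUFA9, NDUFAF8, COX5B and ATP5IF1 show siSOX4 samples close to each other and apart from both controls, while the 2 siSOX4 samples of ATP5F1A lie on opposite sides of the controls.

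Complex V, the ATP synthase, had 12 of 18 genes higher, with a median of 0.07, but 9 higher and 9 lower with a median of -0.0016 after median scaling. The largest difference was that of ATP5IF1, the inhibitor that keeps the enzyme from hydrolysing ATP when the proton gradient collapses. Its log2 signals were 9.13 and 9.16 after siSOX4 and 9.67 and 9.60 in the controls. The siSOX4 samples were close to each other and both were below the controls. The difference was -0.49 ± 0.16 (1.40-fold lower, 95% interval -0.85 to -0.12, unadjusted p = 0.0149, adjusted p = 0.282, limma). A second, dimmer ATP5IF1 probe gave -0.34 ± 0.23, with overlapping groups.

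The rotor of the ATP synthase is a ring of c subunits, and ATP5MC1, ATP5MC2 and ATP5MC3 encode the same mature c subunit. ATP5MC2, whose promoter window is shown above, was at 11.38 and 11.11 after siSOX4 and 11.74 and 11.49 in the controls. All siSOX4 values were below the controls, and the difference was -0.37 ± 0.16 (unadjusted p = 0.0499, adjusted p = 0.385, limma). A second, dim ATP5MC2 probe was detected in both siSOX4 samples and in neither control, so it was kept through the siSOX4 arrays alone. Its siSOX4 mean was 1.17-fold above the lowest detected signal, a bound that carries no error. ATP5MC1 differed by 0.17 ± 0.17 with overlapping groups, and by 0.34 ± 0.20 on a dimmer probe whose groups did not overlap. ATP5MC3 differed by 0.19 ± 0.21.

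In the catalytic F1 part, ATP5F1D, the delta subunit of the central stalk, was at 11.26 and 10.89 after siSOX4 and 10.73 and 10.70 in the controls, above both, with siSOX4 sample 1 the higher. Its difference was 0.36 ± 0.17 (adjusted p = 0.414, limma), and 0.22 ± 0.18 by a second probe. ATP5F1A, the alpha subunit, was at 12.65 and 12.29 after siSOX4 and 12.51 and 12.43 in the controls, and its difference of 0.0027 ± 0.15 was the smallest of the complex. Of the stalk and membrane subunits, ATP5PD (0.05 ± 0.12) and ATP5PF (-0.09 ± 0.13) differed by less than their standard errors and had other probes of opposite sign. For ATP5ME, named after its values were seen, the brighter probe gave 0.17 ± 0.13 and a dimmer one 0.62 ± 0.19, the smallest unadjusted p of any member probe (0.0131, adjusted p = 0.272, limma). ATP5F1EP2, a pseudogene of the epsilon subunit gene whose probe may bind ATP5F1E as well, differed by 0.02 ± 0.10.

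Over all members, 23 genes had several kept probes, and for 7 of these the probes differed in sign: NDUFA10, NDUFAF7, UQCR10, ATP5MC2, ATP5PD, ATP5PF and ATP5F1EP2. For ATP5MC2 this rests on the dim probe that neither control detected, and 6 genes are left without it.

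Other mitochondrial gene groups were read from the same fit, and no member of them passed the threshold either. Among other assembly factors of the chain, 21 of 34 were lower and 13 higher (median -0.06). UQCC1 of complex III assembly differed by -0.66 ± 0.18 and ATPAF2 of F1 assembly by 0.63 ± 0.20. ATPAF2 was dim, with raw signals of 106 and 103 after siSOX4 and 83.5 and 87.9 in the controls, and only 1 control detected it. Electron carriers and coenzyme Q synthesis genes had a median of -0.0046 (15 genes), with COQ2 at 0.36 ± 0.22 and ETFDH at -0.34 ± 0.19.

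Of the citric acid cycle and pyruvate dehydrogenase genes, 9 of 16 were higher and 7 lower (8 and 8 after median scaling). IDH2, the mitochondrial NADP-dependent isocitrate dehydrogenase, was detected in both siSOX4 samples (raw signals 115 and 110.4) and in neither control (84.7 and 84.9). Its siSOX4 mean was 1.71-fold above the lowest detected signal, a bound that carries no error. The log2 difference of IDH2 was 0.87 ± 0.20 (adjusted p = 0.168, limma). IDH3A, a subunit of the NAD-dependent enzyme, differed by 0.65 ± 0.22 (adjusted p = 0.299, limma). With genes detected on all 4 arrays only, which leaves out IDH2, the median of the list went from 0.065 to 0.0017. At an unadjusted p under 0.05 (limma), 4 of the 16 were higher and 0 lower, where 7.44% and 7.39% of all genes were. The 4 include IDH2, which was kept through the siSOX4 arrays alone.

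Mitochondrial ribosomal protein genes were higher in 46 of 76 (39 after median scaling) and lower in 39.5%, where 52.0% of all genes were lower. Their median was 0.04, which was 0.0022 for siSOX4 sample 1 alone and 0.11 for sample 2. The largest differences were those of MRPS9 (0.72 ± 0.17) and MRPS6 (0.47 ± 0.15). Protein import genes were divided, 11 higher and 11 lower, with TIMM17B at 0.59 ± 0.20 and TIMM8A at 0.43 ± 0.20. Regulators of mitochondrial biogenesis had a median of 0.02 (12 genes), with POLG at 0.26 ± 0.18 and TFB1M at 0.23 ± 0.21, and cytosolic ribosomal protein genes, a set outside the mitochondrion, had one of 0.04 (35 genes), with RPL29 at 0.42 ± 0.20 and RPL22 at 0.31 ± 0.14.

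**Figure D4:**
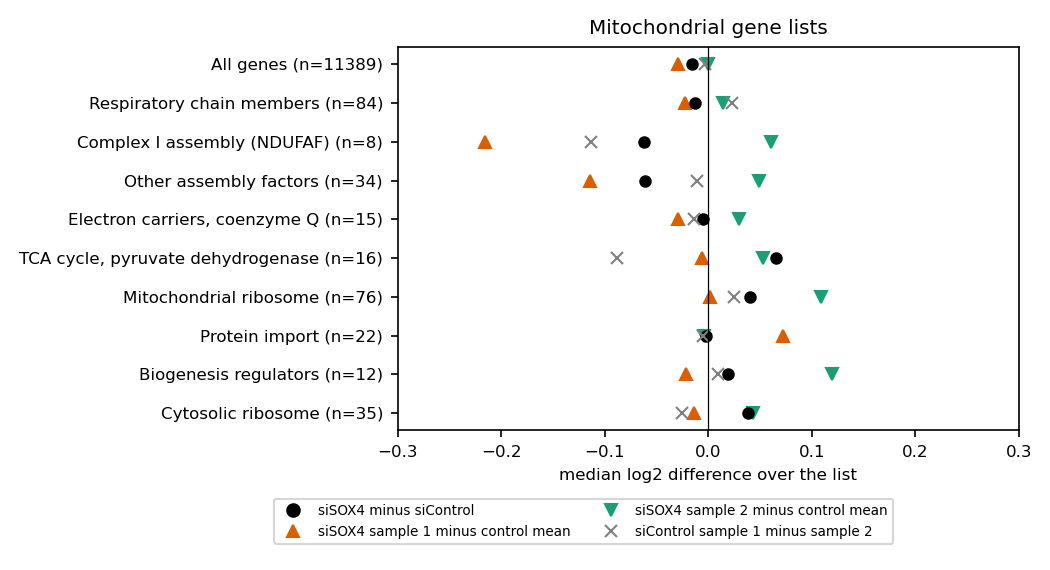
Median log2 difference over each mitochondrial gene list, with all genes and cytosolic ribosomal protein genes beside them (horizontal axis), for siSOX4 minus siControl (black), each siSOX4 sample against the control mean (triangles) and siControl sample 1 minus sample 2 (crosses). The black points lie between -0.06 and 0.07, and for several lists the crosses, the gap between controls, lie as far from 0.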

How the data were processed

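Total RNA was measured on 4 Illumina expression BeadChip arrays (single colour, biotin label, per the labels' protocols). The deposited table gives each probe a linear intensity on every array, with its detection p-value, per the file headers. The deposited series matrix holds the ratio of each intensity to its array's median, found by recomputing, and the authors' deposited table holds the ratio of the siControl mean to the siSOX4 mean per accession.

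Intensities were processed with limma 3.58.1 in R 4.3.3 (neqc with background inferred from detection p-values, offset 16, quantile normalization, log2). Probes detected (p under 0.05) by 2 or more arrays were kept and named from the platform annotation; a gene's brightest kept probe on average stood for it. siSOX4 minus siControl was fitted with lmFit and eBayes (trend, two-sided tests), and p-values were adjusted by Benjamini-Hochberg over the 20118 kept probes. Errors after ± are limma's standard errors with n = 2 arrays per group; the number of arrays limits the precision. A 2 against 2 permutation cannot give a p under 0.333, so none was run. Where a probe was detected on no array of a group, the fold is a bound against the lowest detected signal, without an error. The fit was tested on simulated arrays.

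The members and gene lists were chosen with earlier results of these data known. Members given by array are, per complex, the 4 of largest and the 1 of smallest difference, the SDH genes, the 3 of smallest p, and genes whose probes disagree in sign; of other lists, the 2 of largest difference are named. The core subunits and assembly factors of complex I and ATP5ME were added beyond this rule after their values were seen. For the 26 symbols tried for mitochondrially encoded genes no annotated probe was found, so those genes are not analysed here. Alternatives covered background correction, scaling, detection filter, variance trend, pairing, several probes per gene and leaving out each array.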

Additional observations from a re-analysis of the deposited data

How the results depend on the processing

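Without background correction, without the detection filter, with detection on all 4 arrays, without a variance trend and with a replicate block, every named member that could be compared kept its direction and missed the threshold, and 0 members passed. The count over all genes was 77 without the filter, 1 from the deposited series matrix values and 133 with the replicate block, against 0. The replicate numbers are shared in the labels with nothing that says they pair the cultures, and same-numbered deviations correlated at 0.11 across probes.

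Centring on the array median moved the median of all members to -0.052, of complex III to -0.042 and of complex V to -0.0016, while the median of all genes went from -0.016 to -0.038 and those of complexes I, II and IV to -0.059, -0.14 and -0.046. The deposited series matrix values gave -0.054, -0.046 and -0.0057. Signs turned for ATP5F1A -0.063, ATP5F1EP2 -0.047, ATP5PD -0.022, COX7C -0.037, NDUFA10 -0.0056, UQCRQ -0.042 (log2) under median centring, for ATP5F1A -0.067, ATP5F1EP2 -0.050, ATP5PD -0.026, COX7C -0.041, NDUFA10 -0.0088, UQCRQ -0.046 from the deposited values, and for ATP5MC2 0.072, ATP5PD -0.019, NDUFA10 -0.16, NDUFAF7 0.0071, UQCR10 0.0065 as means over probes.

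Without background correction NDUFAF8 went from 0.68 to 0.36, and to 0.35 with the deposited values. Leaving out 1 array at a time gave 0 to 2811 genes and 0 to 10 members past the threshold. The 2811 and the 10 came without siSOX4 sample 2. Medians ranged from -0.022 to 0.014 for all members, -0.075 to 0.015 for complex I, -0.19 to 0.17 for complex II, -0.068 to 0.091 for complex III, -0.082 to 0.041 for complex IV, 0.026 to 0.094 for complex V, and -0.24 to -0.10 for the complex I core subunits. Differences that turned sign ranged from -0.18 to 0.18 for ATP5F1A, -0.022 to 0.12 for ATP5PD, -0.023 to 0.054 for COX7C, -0.037 to 0.13 for NDUFA10, -0.080 to 0.17 for NDUFAF1, -0.22 to 0.14 for NDUFAF4, -0.33 to 0.16 for NDUFAF5, -0.20 to 0.20 for NDUFC2, -0.17 to 0.050 for NDUFS3, -0.36 to 0.17 for SDHC, -0.021 to 0.041 for UQCRQ. The cause was not tested. Signal over background limits NDUFB4, the dim ATP5MC2 probe, IDH2 and PDGFRB, which were detected in neither control. The probes of NDUFAF8, detected on all 4 arrays, and of ATPAF2, detected on 1 control, were also dim. In all, 82 of the 84 members were detected on all 4 arrays.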
